A study of Homo sapiens with 9 samples.

Results

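The MYC, MAX and MXD network is a set of transcription factors that share dimer partners, and it was followed here through the transcripts of 10 genes chosen by symbol: MYC, MAX, MXD1, MXD3, MXD4, MXI1, MNT, MGA, MLX and MLXIP. These are 10 of the 60651 gene rows in the count table, which also holds 1181 rows of repeat subfamilies, and all 10 passed the filter on low counts. The RNA came from HCT116, a long-established human line of colorectal cancer cells, and was sequenced as 9 libraries. By label, 3 carried a short hairpin RNA against SLC6A3, the dopamine transporter gene, with the solvent DMSO (shSLC6A3 DMSO), 3 carried a control hairpin with a treatment written VXN and not spelled out (shCTRL VXN), and 3 carried the control hairpin with DMSO (shCTRL DMSO). All 9 share the HCT116 background, with genotype labelled WT, and no label gives a dose, a time, a hairpin sequence, or separate cultures or clones for the replicates, so a p-value here measures how these libraries spread and no more, and that spread may be technical.

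MYC binds DNA as a dimer with MAX, at the hexamer known as the E-box, and raises transcription of genes for ribosome assembly, metabolism and cell division. The MXD proteins (MXD1, MXD3, MXD4 and MXI1), MNT and MGA compete for MAX and recruit repressors to the same kind of site. MLX and its partner MLXIP, also called MondoA, form a parallel branch that responds to glucose, and in colorectal cancer MYC is a known target of WNT signalling.

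The labels and the authors' 2 deposited tables of differential expression do not describe the same groups. The tables compare shCTRL V, and separately shDAT D, with shCTRL D, with DAT read here as the dopamine transporter and V and D not spelled out. A DESeq2 rerun on the following trios returned all 38907 p-values of each table within 1e-06, whereas the labelled groups returned 0 of 38907 for shCTRL V and 547 of 38907 for shDAT D. The V trio held, in order, the library labelled shCTRL DMSO replicate 3, then the one labelled shSLC6A3 DMSO replicate 1, then shCTRL VXN replicate 3, whose title spells the treatment VNN. The DAT trio held shCTRL DMSO replicates 1 and 2 and shCTRL VXN replicate 1. The D trio held shSLC6A3 DMSO replicates 2 and 3 and shCTRL VXN replicate 2. Which set of names is right was not tested, so values are given for the libraries in this order within each trio, and the labelled comparison is given beside them. Each trio therefore ends with its library labelled VXN.

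SLC6A3 had 0 to 6 counts in each of the 9 libraries, out of 30.25 to 60.22 M (1e6) total counts per library, and so gave no check of either set of names. The libraries kept the profile of an epithelial line: the summed level of 10 colon epithelium markers was 4823 to 4995 CPM (counts scaled to 1e6 per library, with TMM factors) in the V trio, 4172 to 4349 CPM in the DAT trio and 4179 to 4456 CPM in the D trio. KRT8, KRT18, KRT19 and EPCAM made up much of this, while CDX1, VIL1 and CDH17 stayed at or below 0.109 CPM. Summed leukocyte markers lay between 3.59 and 7.31 CPM, endothelial markers between 0.673 and 1.58 CPM and fibroblast markers between 19.2 and 47.8 CPM. Summed levels of 14 cell cycle markers were 533 to 638 CPM in the V trio, against 2986 to 3084 CPM in the DAT trio and 3103 to 3494 CPM in the D trio.

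MYC (ENSG00000136997.21, GRCh38 chromosome 8, 127735434 to 127741434, plus strand) was the most abundant member per length. It stood at 226, 233 and 231 CPM in the V trio, 492, 455 and 435 CPM in the DAT trio, and 377, 377 and 449 CPM in the D trio. The V libraries lay below all 6 others, and the DAT and D trios overlapped. In the authors' deposited table of shCTRL V, MYC fell, with a log2 fold change of -0.82 (SE 0.08, adjusted p = 9.45e-24, DESeq2), which is 0.567 times the shCTRL D level. In the authors' deposited table of shDAT D, its log2 fold change was 0.13 (SE 0.08) and did not pass (adjusted p = 0.120, DESeq2). The V trio was also lower than the DAT trio, by a log2 fold change of -1.004 (SE 0.08, adjusted p = 1.88e-06, edgeR quasi-likelihood test), which tests the difference between the authors' 2 comparisons directly. The fall of MYC went with the fall of the cell cycle markers given above, whose part in it was not tested. In bulk RNA, fewer cells of a kind and less RNA per cell cannot be told apart.

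MAX (ENSG00000125952.20, chromosome 14, 65006174 to 65102695, minus strand), the obligate partner of MYC, the MXD proteins, MNT and MGA, was not called in either of the authors' tables. It had 57.0, 57.9 and 51.7 CPM in the V trio, 40.5, 41.4 and 36.2 CPM in the DAT trio and 50.2, 51.9 and 38.1 CPM in the D trio. Every V library was above every DAT library, while the D trio spread from just above the lowest DAT library into the V range. Its log2 fold change was 0.21 (SE 0.12) in the authors' deposited table of shCTRL V, which did not pass (adjusted p = 0.149, DESeq2). Against the DAT trio MAX was higher in the V trio, by 0.50 on the log2 scale (SE 0.11, adjusted p = 0.00283, edgeR).

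The 4 MXD genes, whose proteins antagonise MYC at shared sites, did not change in the same direction. MXD1 (ENSG00000059728.11, chromosome 2, 69897688 to 69942945, plus strand), which is known to be induced as cells differentiate, had the widest range of the 10 members, 8.28-fold between its highest and lowest library. MXD1 stood at 52.7, 53.3 and 57.9 CPM in the V trio, 11.2, 10.8 and 18.3 CPM in the DAT trio and 6.99, 7.24 and 10.9 CPM in the D trio. The V libraries were far above the rest, and only the VXN-labelled library of the D trio reached into the DAT range. MXD1 rose in the authors' deposited table of shCTRL V, by 2.66 on the log2 scale (SE 0.20, adjusted p = 1.97e-40, DESeq2), or 6.31-fold. It was also the only member called in the authors' deposited table of shDAT D, at 0.51 (SE 0.23, adjusted p = 0.0355, DESeq2). Between the V and DAT trios MXD1 differed by 2.04 (SE 0.21, adjusted p = 1.47e-05, edgeR).

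MXD4 (ENSG00000123933.17, chromosome 4, 2247432 to 2262294, minus strand) followed the same order of trios as MXD1. Its levels were 67.3, 72.6 and 79.2 CPM in the V trio, 31.0, 30.5 and 35.5 CPM in the DAT trio and 20.2, 20.7 and 36.7 CPM in the D trio. The D trio was split, since its VXN-labelled library was above all DAT libraries and the other 2 were below them. MXD4 rose in the authors' deposited table of shCTRL V, by 1.44 on the log2 scale (SE 0.19, adjusted p = 9.72e-15, DESeq2). In the authors' deposited table of shDAT D it stood at 0.08 (SE 0.12) and did not pass (adjusted p = 0.242, DESeq2), and an unshrunken rerun of the same fit put it at 0.30. The V trio exceeded the DAT trio by 1.18 (SE 0.20, adjusted p = 0.000458, edgeR).

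MXI1 (ENSG00000119950.21, chromosome 10, 110207605 to 110287365, plus strand) was the most abundant MXD gene per length and varied less. It had 86.5, 87.7 and 98.2 CPM in the V trio, 78.3, 79.4 and 89.5 CPM in the DAT trio and 67.0, 67.9 and 76.7 CPM in the D trio. V and D did not overlap, nor did DAT and D, while V and DAT did. MXI1 rose in the authors' deposited table of shCTRL V by 0.33 on the log2 scale (SE 0.09, adjusted p = 0.000351, DESeq2). The authors' deposited table of shDAT D gave 0.14 (SE 0.09, adjusted p = 0.111, DESeq2), and the V trio differed from the DAT trio by 0.14 (SE 0.08, adjusted p = 0.153, edgeR).

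MXD3 (ENSG00000213347.10, chromosome 5, 177301461 to 177312757, minus strand), the MXD gene known for expression in dividing cells, went the other way. MXD3 had 6.26, 7.10 and 7.40 CPM in the V trio, 18.0, 16.9 and 19.1 CPM in the DAT trio and 15.3, 14.5 and 17.8 CPM in the D trio. The V libraries lay below all others. It fell in the authors' deposited table of shCTRL V by 1.20 on the log2 scale (SE 0.11, adjusted p = 1.47e-25, DESeq2), and the V trio was below the DAT trio by a log2 fold change of -1.38 (SE 0.10, adjusted p = 1.54e-06, edgeR). The library kit does not mark strand, and 18% of the annotated exon bases of MXD3 overlap RAB24 and 22.5% overlap PRELID1 on the opposite strand, so reads there cannot be assigned with certainty. In the authors' deposited table of shCTRL V, RAB24 was at -0.38 and PRELID1 at -0.78 on the log2 scale, against -1.20 for MXD3.

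**Figure D1:**
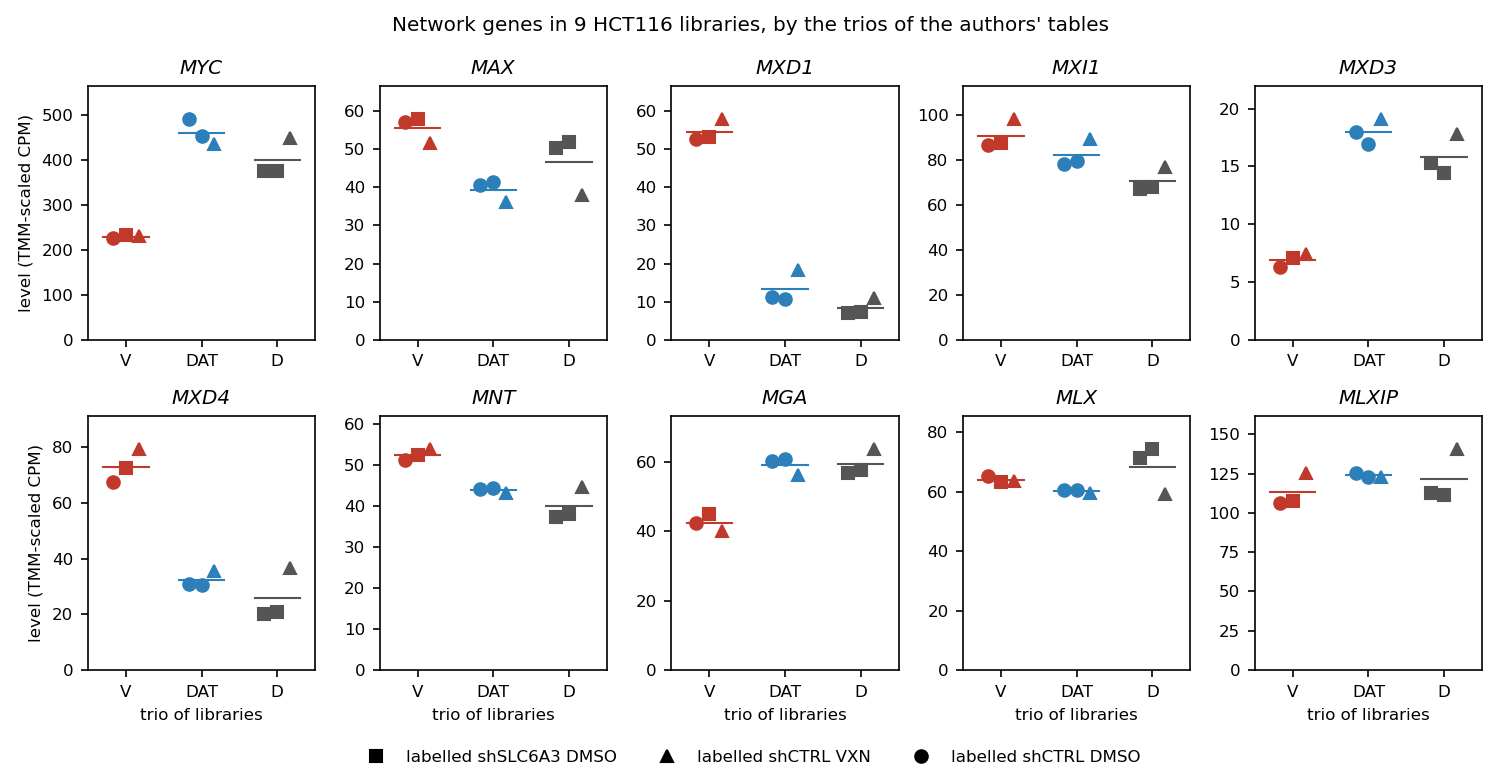
Level of each of the 10 network genes, in TMM-scaled CPM (linear axis from 0), in the 9 libraries arranged by the trios behind the authors' tables; each point is a library, its shape gives its label, and the line is the mean of the trio. The V libraries sit apart from the other 6 for MYC, MXD1, MXD3, MXD4, MNT and MGA, and overlap them for MAX, MXI1, MLX and MLXIP. The share of all features whose V libraries sit apart in this way was not computed, so this is no trait particular to the network.

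MNT and MGA, the larger MAX partners that act as repressors, moved in opposite directions. MNT (ENSG00000070444.15, chromosome 17, 2384060 to 2401118, minus strand) had 51.3, 52.6 and 53.9 CPM in the V trio, 44.3, 44.4 and 43.2 CPM in the DAT trio and 37.3, 38.2 and 44.7 CPM in the D trio. All V libraries were above all others, by a small margin. MNT rose in the authors' deposited table of shCTRL V, by 0.36 on the log2 scale (SE 0.08, adjusted p = 7.70e-06, DESeq2), and V exceeded DAT by 0.26 (SE 0.07, adjusted p = 0.00868, edgeR). An antisense gene covers 12.2% of the exon bases of MNT. MGA (ENSG00000174197.16, chromosome 15, 41621224 to 41773081, plus strand), the scaffold of a Polycomb complex that silences germline genes, had 42.4, 44.9 and 39.9 CPM in the V trio, 60.3, 60.8 and 56.1 CPM in the DAT trio and 56.6, 57.6 and 63.5 CPM in the D trio. The V libraries were the lowest, and DAT and D overlapped. MGA fell in the authors' deposited table of shCTRL V by 0.50 on the log2 scale (SE 0.07, adjusted p = 7.66e-11, DESeq2), and its log2 fold change between the V and DAT trios was -0.48 (SE 0.07, adjusted p = 0.000138, edgeR).

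MLX and MLXIP, the glucose-responsive branch, were not called in either table. MLX (ENSG00000108788.12, chromosome 17, 42567068 to 42573239, plus strand) had 65.3, 63.2 and 63.6 CPM in the V trio, 60.7, 60.4 and 59.6 CPM in the DAT trio and 71.2, 74.3 and 59.3 CPM in the D trio. Its highest and lowest library both belonged to the D trio. The authors' deposited table gave -0.12 (SE 0.09, adjusted p = 0.333, DESeq2) for shCTRL V, and without shCTRL VXN replicate 2 the rerun called MLX lower, at -0.22 (adjusted p = 6.99e-05, DESeq2), not shrunken, against an unshrunken -0.12 with all libraries. On the opposite strand PSMC3IP overlaps 18.1% of the exon bases of MLX and fell by 2.16 on the log2 scale in the authors' deposited table of shCTRL V. MLXIP (ENSG00000175727.14, chromosome 12, 122078722 to 122147347, plus strand) had 106, 108 and 126 CPM in the V trio, 126, 123 and 123 CPM in the DAT trio and 112, 111 and 140 CPM in the D trio. All 3 trios overlapped, and the authors' deposited table gave -0.12 (SE 0.10, adjusted p = 0.343, DESeq2) for shCTRL V.

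**Figure D2:**
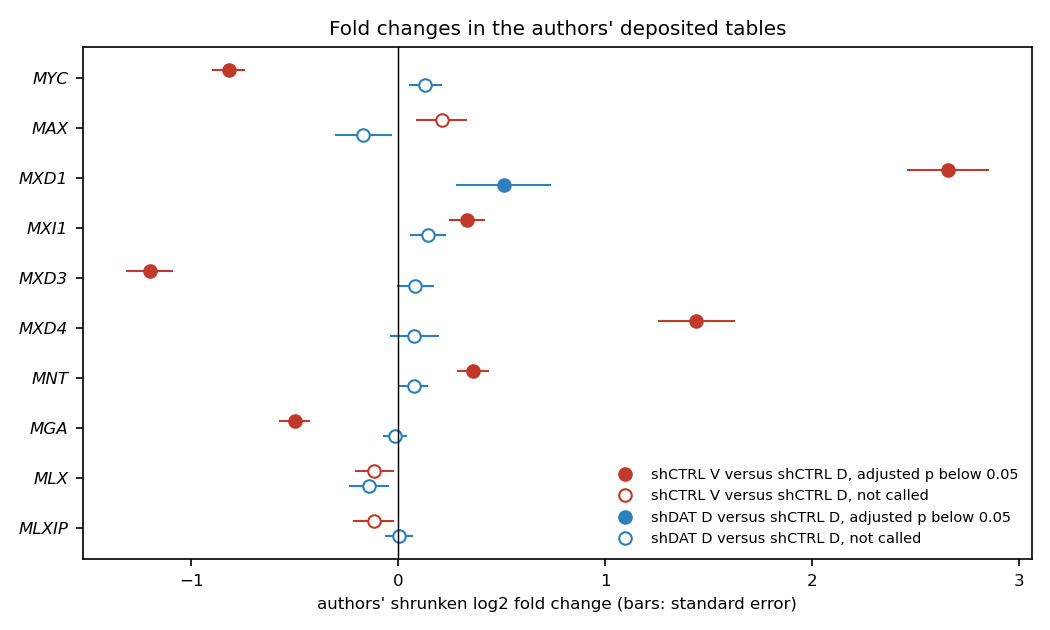
Shrunken log2 fold changes of the 10 genes in the authors' deposited tables for shCTRL V and for shDAT D, each against shCTRL D; bars are standard errors, and filled points passed an adjusted p below 0.05. For shCTRL V 7 genes passed, from MXD1 at 2.66 to MXD3 at -1.20, and for shDAT D only MXD1 passed, at 0.51.

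Of the 10 members, 4 rose (MXD1, MXD4, MXI1, MNT) and 3 fell (MYC, MXD3, MGA) in the authors' deposited table of shCTRL V. As background, 44.0% of the 24274 features with an adjusted p in the authors' deposited table of shCTRL V passed, 21.4% higher and 22.7% lower, so a call on its own is common there. In the authors' deposited table of shDAT D, 1 of 10 members passed and rose, against 6.62% of 10403 features, 104 of them higher and 5.62% lower. Between the V and DAT trios, 4 members were higher (MXD1, MXD4, MAX, MNT) and 3 lower (MYC, MXD3, MGA), against 57.5% of 20402 features called, 28.8% higher and 28.7% lower. The authors' 2 comparisons share the same 3 control libraries.

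The shDAT D calls depended on which libraries were included, and rose most without shCTRL VXN replicate 2 of the D trio. Without it, a DESeq2 rerun called 7890 features, against 689 in the authors' deposited table, and 7 of the 10 members. The share of all features called in that rerun was not computed, so the 7 members have no background share beside them. Of the 7890, 3114 were higher and 4776 lower. The reruns give log2 fold changes that are not shrunken, so each is set beside the unshrunken value with all libraries. MXD1 was at 0.87 without this library (adjusted p = 0.00220, DESeq2) and 0.66 with it, and MXD4 at 0.62 (adjusted p = 1.38e-11) and 0.30. MYC was at 0.25 without it (adjusted p = 1.80e-05, DESeq2) and 0.18 with it, MXI1 at 0.25 (adjusted p = 0.00264) and 0.20, and MNT at 0.18 (adjusted p = 0.00794) and 0.11. MAX was at -0.41 without it (adjusted p = 1.73e-07, DESeq2) and -0.27 with it, and MLX at -0.31 (adjusted p = 5.97e-08) and -0.21. Leaving out any other library gave 0 to 362 calls, fewer than the 689 of the authors' deposited table. The MXD1 call did not pass in 4 of the 9 reruns (adjusted p from 0.554 to 1, DESeq2), had no adjusted p in 3 of them and passed in 2, and it did not pass with edgeR (0.67, adjusted p = 0.187). edgeR on the same columns called 0 features, with 4251 at an unadjusted p below 0.05, 5 of them members. Across the counts of all features kept, this library stood nearer to the DAT trio than to its own: chi-square per degree of freedom came to 8.82, 9.98 and 11.9 with the 3 DAT libraries and to 75.6 and 71.5 with the other 2 D libraries.

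By the labelled groups no member was called. Each labelled group holds 1 library of the V trio. MYC averaged 329 ± 83.2 CPM in shSLC6A3 DMSO and 391 ± 144 CPM in shCTRL DMSO (SD, n = 3 each), and MXD1 averaged 22.5 ± 26.7 CPM and 24.9 ± 24.0 CPM in the same groups. The log2 fold changes of the 10 members ran from -0.25 for MYC (SE 0.37) to 0.20 for MAX (SE 0.18), and the share of features called was 0% (0 of 20402 with edgeR or DESeq2, 930 at an unadjusted p below 0.05 with edgeR, none of them a member). In shCTRL VXN against shCTRL DMSO, MYC averaged 372 ± 122 CPM and 391 ± 144 CPM (SD, n = 3 each), and MXD1 averaged 29.03 ± 25.3 CPM and 24.9 ± 24.0 CPM. The log2 fold changes of the 10 members there ran from -0.14 for MAX (SE 0.18) to 0.23 for MXD4 (SE 0.60), with 0.00980% of features called (2 of 20402 with edgeR, 20 with DESeq2, 384 at an unadjusted p below 0.05 with edgeR, again no member). The standard errors of MXD1 (1.03), MXD4 (0.60) and MXD3 (0.50) in these fits were several times those between the trios.

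The makeup of the network was set out per length, as CPM per kilobase of annotated exons, for the 7 proteins that pair with MAX (MYC, MXD1, MXD3, MXD4, MXI1, MNT and MGA). MYC took 62.0, 62.0 and 59.9% of their summed level in the V trio, 82.3, 81.2 and 78.7% in the DAT trio and 81.3, 81.1 and 80.7% in the D trio. The V trio thus stood below the other 6 libraries, which lay close together. The ratio of MYC to the 4 MXD genes summed was 1.99, 1.99 and 1.78 in the V trio, 6.15, 5.72 and 4.67 in the DAT trio and 5.85, 5.81 and 5.54 in the D trio. Per length, MYC remained more abundant than the MXD genes together in each library. Without division by length it did not in shCTRL VXN replicate 3. There MYC had 231 CPM, and MXD1, MXD3, MXD4 and MXI1 had 57.9, 7.40, 79.2 and 98.2 CPM. Within the MXD sum, MXD1 took 21.2 to 21.9% in the V trio, 6.42 to 9.27% in the DAT trio and 5.13 to 6.35% in the D trio, while MXI1 took 48.7 to 49.6% in the V trio, 62.6 to 64.9% in the DAT trio and 61.6 to 68.2% in the D trio. MXD3 took 3.21 to 3.53% in the V trio, 11.9 to 13.1% in the DAT trio and 12.8 to 13.8% in the D trio. The ratio of MYC to MAX was 5.84 to 6.58 in the V trio, 16.2 to 17.9 in the DAT trio and 10.7 to 17.4 in the D trio. These shares are descriptions of transcript levels, and isoforms of a gene were not separated.

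**Figure D3:**
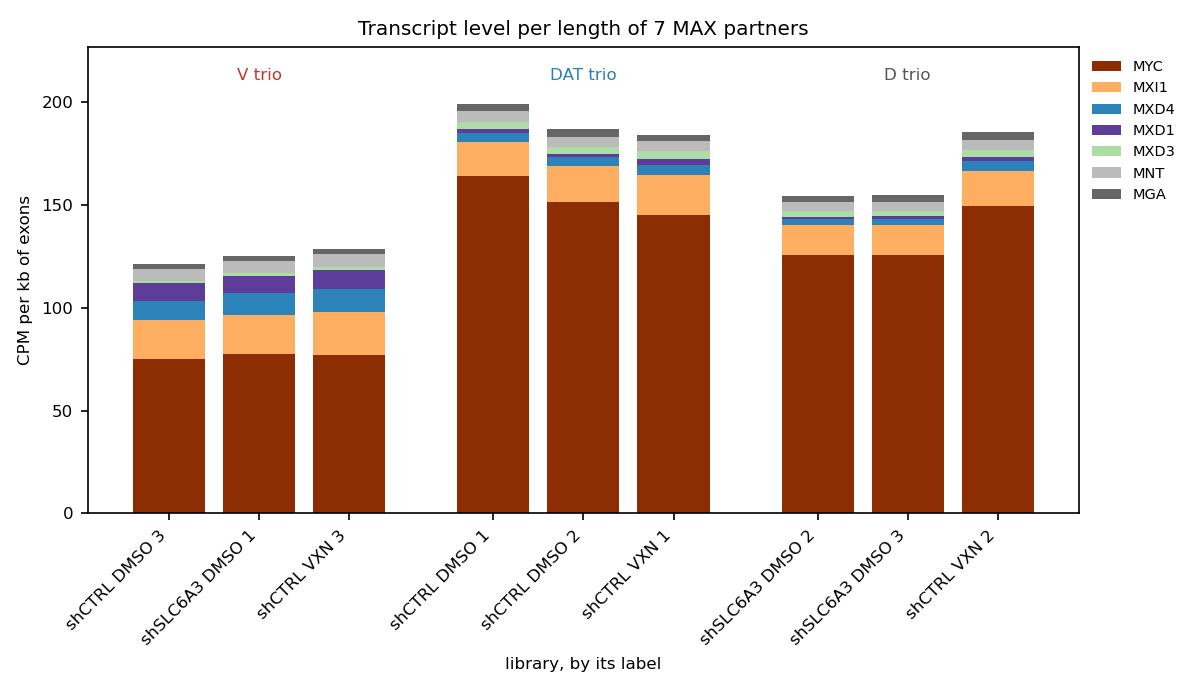
Stacked level of 7 MAX partners in CPM per kilobase of exons (linear axis from 0) in each library, grouped by trio and named by label. MYC fills 59.9 to 62.0% of each V bar and 78.7 to 82.3% of each DAT or D bar, and the MXD1 and MXD4 segments are widest in the V bars.

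Since these factors bind the E-box CACGTG, the bases before the start of each member were searched for it. The reference table from RefSeq (GRCh38.p14, 250 bases before to 50 after each start) matched 9 members with 14 starts, of which 3 held CACGTG, which reads the same on both strands: MXD4 with its first base 238 bases before the start, MNT at 193 bases and MLX at 50 bases. Of all 35116 promoters in the table, 2548 (7.26%) held the hexamer in a window of the same length. The 250 upstream bases are printed for those 3, and for MXD1, the member with the widest range, where the window has no such hexamer; CACGTG is in capitals.
MXD4, chr4:2262110-2262359, minus strand: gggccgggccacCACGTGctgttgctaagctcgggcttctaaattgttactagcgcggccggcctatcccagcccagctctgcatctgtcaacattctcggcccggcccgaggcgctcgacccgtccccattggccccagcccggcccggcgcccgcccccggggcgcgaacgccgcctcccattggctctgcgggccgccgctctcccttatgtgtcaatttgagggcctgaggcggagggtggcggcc
MNT, chr17:2401061-2401310, minus strand: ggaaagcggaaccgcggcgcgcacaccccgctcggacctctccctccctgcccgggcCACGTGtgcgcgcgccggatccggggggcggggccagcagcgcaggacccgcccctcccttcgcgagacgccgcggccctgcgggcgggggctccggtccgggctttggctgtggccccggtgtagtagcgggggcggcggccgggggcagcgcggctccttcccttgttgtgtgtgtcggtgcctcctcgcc
MLX, chr17:42566850-42567099, plus strand: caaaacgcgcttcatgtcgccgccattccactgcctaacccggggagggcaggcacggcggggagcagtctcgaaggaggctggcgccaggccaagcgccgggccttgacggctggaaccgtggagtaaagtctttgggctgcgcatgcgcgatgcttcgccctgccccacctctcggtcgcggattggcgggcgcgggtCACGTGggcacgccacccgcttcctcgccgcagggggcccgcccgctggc
MXD1, chr2:69914859-69915108, plus strand: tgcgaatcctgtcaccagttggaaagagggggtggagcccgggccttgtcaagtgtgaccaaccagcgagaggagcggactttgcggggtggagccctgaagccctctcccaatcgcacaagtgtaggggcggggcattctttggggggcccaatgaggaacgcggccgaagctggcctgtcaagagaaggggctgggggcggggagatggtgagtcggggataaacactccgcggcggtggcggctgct
MXD4 and MNT, with the hexamer, rose in the authors' deposited table of shCTRL V as MXD1 did without it, and MLX, with it, was not called. Of the other members searched, all without the hexamer, MXI1 rose, MXD3 and MGA fell, and MAX and MLXIP were not called there.

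The genes around the network were taken as lists. In the authors' deposited table of shCTRL V, 21.4% of all features tested were called higher and 22.7% lower. Of 34 genes that MYC is known to activate, 0 rose, 29 fell and 5 did not pass in the authors' deposited table of shCTRL V, with a median log2 fold change of -0.75 against -0.00158 over all features tested. LDHA, the lactate dehydrogenase of glycolysis, fell by 1.65 on the log2 scale (SE 0.07, adjusted p = 9.50e-119, DESeq2) in the authors' deposited table of shCTRL V, and the other 3 with the lowest adjusted p fell too: CDC25A, the phosphatase that activates cyclin-dependent kinases, at -2.51 (SE 0.12), BOP1, a ribosome assembly factor, at -1.6 (SE 0.08), and FBL, the nucleolar methyltransferase fibrillarin, at -1.07 (SE 0.07). LDHA stood at 288, 286 and 288 CPM in the V trio, 1009, 1062 and 1120 CPM in the DAT trio and 845, 847 and 983 CPM in the D trio, so the V libraries were apart from all others. The promoters of this list held CACGTG in 14 of 36 starts (38.9%), against 7.26% of all promoters. Some genes of the list, such as NOP58 and NOLC1, had no start in the reference, and HSPD1 and HSPE1 share the same hexamer. Between the V and DAT trios, 26 of 33 were lower in V and 3 were higher (edgeR), against 28.7% and 28.8% of all features. All 14 cell cycle markers fell as well in the authors' deposited table of shCTRL V, with a median of -2.52, and their part in the fall of the MYC-activated genes was not tested.

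Of 9 genes tested that MYC is known to repress, 7 rose, 1 fell and 1 did not pass in the authors' deposited table of shCTRL V. The list median was 1.01, and 21.4% of all features tested there rose and 22.7% fell. The cell cycle inhibitors CDKN2B and CDKN1A rose by 2.68 (SE 0.16) and 1.49 (SE 0.09) in the authors' deposited table of shCTRL V, the antiproliferative gene BTG1 by 2.19 (SE 0.07) and the stress-induced GADD45A by 1.01 (SE 0.16), whereas NDRG2, another member of the list, fell by 1.18 (SE 0.14). CDKN1A had 522, 518 and 584 CPM in the V trio, 205, 191 and 188 CPM in the DAT trio and 172, 176 and 215 CPM in the D trio. The V libraries were again apart, and DAT and D overlapped. Between the V and DAT trios, where 28.8% of all features were called higher and 28.7% lower, the list median was 0.45. There, 5 of 10 genes of the list were higher in V, 2 were lower and 3 did not pass (edgeR). The 2 became 1 with DESeq2, with trio and label terms, and without any 1 of shCTRL DMSO replicates 1 to 3, shSLC6A3 DMSO replicate 1 or shCTRL VXN replicate 3.

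Cofactors of MYC and proteins that control its turnover fell more often than they rose, 17 of 26 against 4, in the authors' deposited table of shCTRL V. Of all features tested there, 21.4% rose and 22.7% fell, and the median of this list was -0.47. The log2 fold changes of the 4 falls with the lowest adjusted p were -2.32 (SE 0.08) for AURKA, a mitotic kinase that also stabilises MYC family proteins, -1.6 (SE 0.11) for SKP2, a ubiquitin ligase subunit that acts on MYC, -1.08 (SE 0.07) for the helicase RUVBL2 and -2.16 (SE 0.18) for CIP2A, an inhibitor of a phosphatase that destabilises MYC, in the authors' deposited table of shCTRL V. Those that rose in the authors' deposited table of shCTRL V included GSK3B, the kinase that marks MYC for degradation, by 0.58 (SE 0.06), and the corepressors SIN3B and NCOR1, on which MXD proteins rely, by 0.42 (SE 0.06) and 0.43 (SE 0.11). AURKA is also a cell cycle gene. Of the 9 partners of MGA in its Polycomb complex, 2 rose and 4 fell in the authors' deposited table of shCTRL V, against the same shares of all features. Their median was -0.11. The falls were those of TFDP1 (-1.18, SE 0.10), CBX3 (-0.81, SE 0.09), PCGF6 (-0.60, SE 0.09) and L3MBTL2 (-0.28, SE 0.10), and the rises those of RING1 (0.42, SE 0.08) and RYBP (0.16, SE 0.06), in the authors' deposited table of shCTRL V.

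Of 4 tested targets of MondoA and MLX, 1 rose and 2 fell in the authors' deposited table of shCTRL V, where 21.4% of all features tested rose and 22.7% fell. The glycolytic genes HK2 (-0.76, SE 0.07) and PFKFB3 (-0.77, SE 0.08) fell, and the arrestin-domain gene ARRDC3 rose (1.08, SE 0.16), in the authors' deposited table of shCTRL V. HK2 had 66.5, 67.8 and 66.5 CPM in the V trio, 115, 114 and 129 CPM in the DAT trio and 106, 108 and 121 CPM in the D trio. TXNIP, the best known MondoA target, had 0 counts in all 9 libraries and was not tested. Whether its RNA was absent or was missed by the authors' counting was not examined, so nothing is read from this 0. Of 3 relatives of the members, MYCL rose by 0.61 (SE 0.11) and MLXIPL, the partner of MLX also known as ChREBP, by 1.21 (SE 0.11) in the authors' deposited table of shCTRL V, and MYCN had 0 counts throughout. MLXIPL had 120, 120 and 130 CPM in the V trio, 66.5, 61.9 and 66.0 CPM in the DAT trio and 46.3, 47.1 and 62.1 CPM in the D trio.

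Fewer genes of the same lists were called in the authors' deposited table of shDAT D, where 6.62% of all features tested were called, 5.62% as lower, and the median was -0.04. Of 32 MYC-activated genes, 1 rose and 6 fell in the authors' deposited table of shDAT D, with a median of -0.13. LDHA rose by 0.20 (SE 0.07, adjusted p = 0.0355, DESeq2) in the authors' deposited table of shDAT D. The 4 falls with the lowest adjusted p were -0.31 (SE 0.10) for the spermidine synthase SRM, -0.27 (SE 0.10) for the cyclin-dependent kinase CDK4, -0.31 (SE 0.12) for the serine hydroxymethyltransferase SHMT2 and -0.32 (SE 0.15) for the ornithine decarboxylase ODC1 in the authors' deposited table of shDAT D. GADD45A rose by 0.51 (SE 0.17) among 9 MYC-repressed genes, WDR5 fell by 0.31 (SE 0.11) among 26 cofactors and TFDP1 fell by 0.23 (SE 0.11) among 9 MGA partners, and 0 of 4 MondoA targets and 0 of 14 cell cycle markers passed, in the authors' deposited table of shDAT D. These counts also depended on which libraries were included. Without shCTRL VXN replicate 2, a DESeq2 rerun called 2 MYC-activated genes higher and 26 lower, 6 MYC-repressed genes higher and 2 lower, and 12 cofactors lower, among 3114 features higher and 4776 lower in all. What share of the features tested in that rerun these make up was not computed. With edgeR on the same columns none of the 3 lists held a call. By the labelled groups no list held a call in either comparison.

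**Figure D4:**
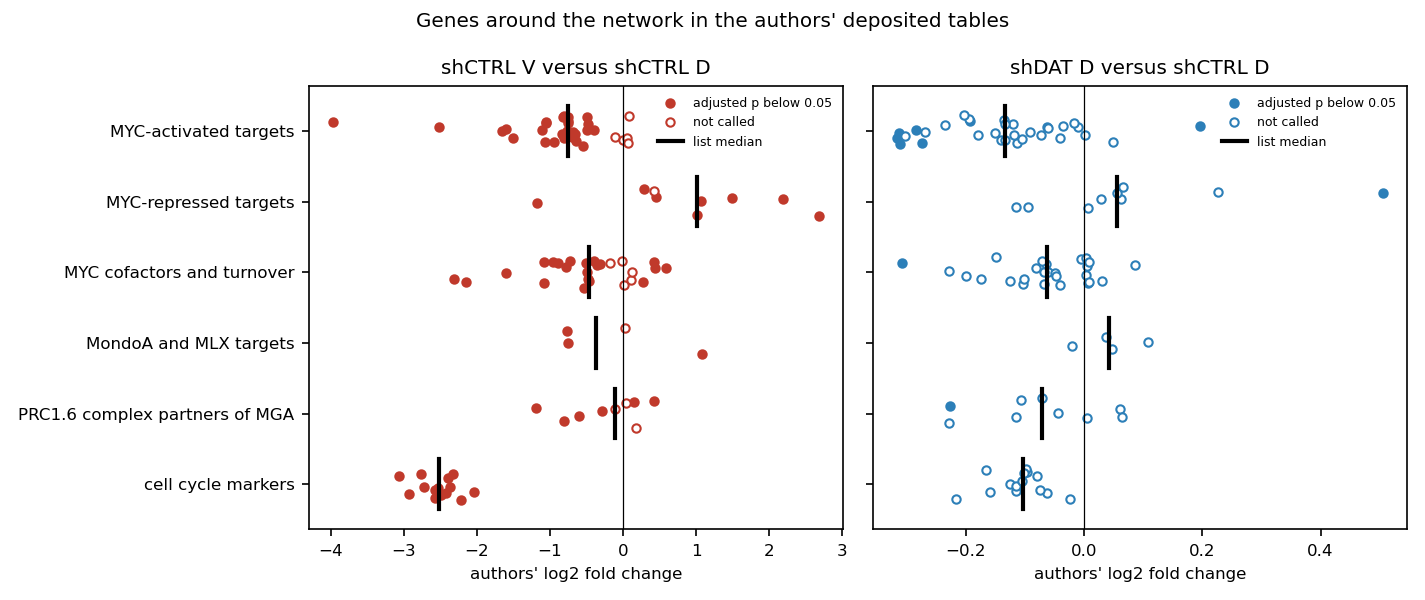
Log2 fold changes of the genes in 6 lists in the authors' deposited tables for shCTRL V (left) and shDAT D (right), each against shCTRL D, on axes of different range; filled points passed an adjusted p below 0.05 and bars mark list medians. On the left the MYC-activated list has a median of -0.75, the MYC-repressed list 1.01 and the cell cycle markers -2.52, and on the right the MYC-activated median is -0.13.

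Each trio holds a single library labelled VXN, so that library was set against the mean of the other 2 of its trio as a description. MXD1 was higher in it by 0.13 on the log2 CPM scale in the V trio, by 0.73 in the DAT trio and by 0.61 in the D trio. MXD4 was higher by 0.18, 0.21 and 0.84, MXI1 by 0.17, 0.18 and 0.18, and MXD3 by 0.15, 0.13 and 0.26 in the same trios. The VXN-labelled library was the highest of its trio in all 3 trios for these 4 MXD genes. It was the lowest in all 3 for MAX, with differences of -0.15, -0.18 and -0.42. How many of all features keep such an order was not computed. The other 2 libraries are labelled shCTRL DMSO in the DAT trio, shSLC6A3 DMSO in the D trio, and differently from each other in the V trio. In the D trio, the VXN-labelled library was the one that stood nearer to the DAT trio, whose part in its differences was not tested. Across the counts of all features kept, the VXN-labelled library was the farthest from the other 2 in each trio. Its chi-square per degree of freedom with them came to 13.2 and 13.5 in the V trio, and 8.88 and 7.35 in the DAT trio. The other 2 came to 2.86 with each other in the DAT trio, and lower still in the V and D trios. The part of this distance in the order of the MXD genes and MAX was not tested. MYC had no common direction, at 0.01, -0.12 and 0.25. In an edgeR fit with trio and label as terms, chosen after seeing the data, VXN against DMSO gave 0.49 for MXD1 (SE 0.12, adjusted p = 0.310), 0.19 for MXI1 (SE 0.05, adjusted p = 0.310), 0.32 for MXD4 (SE 0.13, adjusted p = 0.504) and -0.19 for MAX (SE 0.07, adjusted p = 0.414). That fit called 9 of 20402 features and none of the members.

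**Figure D5:**
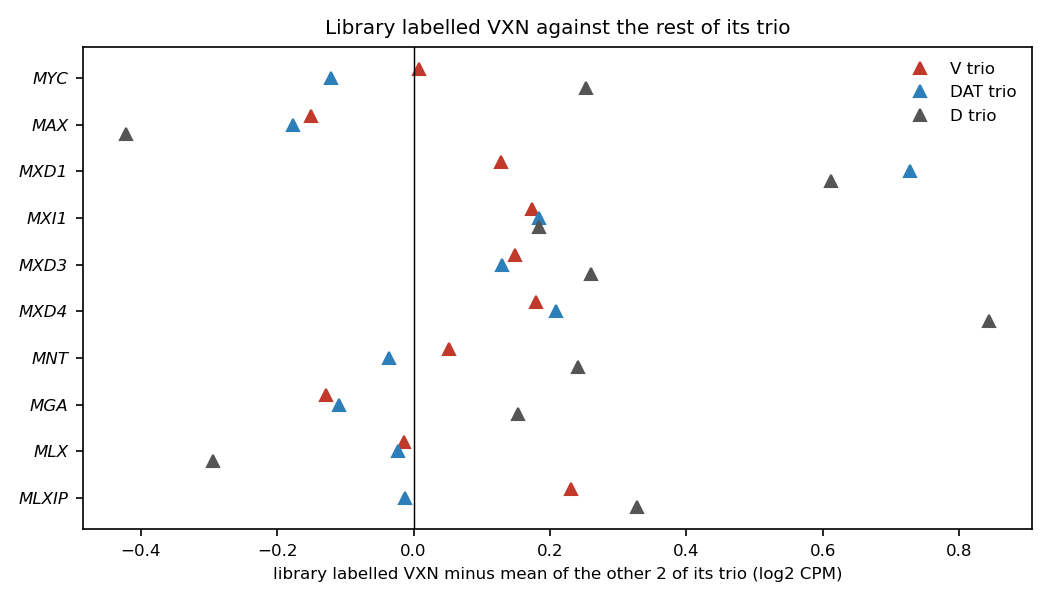
Difference in log2 CPM between the library labelled VXN and the mean of the other 2 libraries of its trio, for each of the 10 genes; each triangle is a trio. MXD1, MXI1, MXD3 and MXD4 lie right of 0 in all 3 trios and MAX lies left of it, while MYC spans -0.12 to 0.25.

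The genes whose profile over the 9 libraries was closest to that of MYC were sought among 9960 genes with a mean of at least 10 CPM, by the root mean square difference of log2 CPM after each gene was centred on its own mean. The 5 closest were RBM12B (0.0489), ERI1 (0.0539), AP1S3 (0.0554), BCAS4 (0.0556) and PLEKHG2 (0.0565). The 5 closest to MXD1 included FGFBP1 (0.169), STARD4 (0.217) and TP53INP2 (0.222), each farther from it than the genes named for MYC were from MYC. The libraries share the split between the V trio and the rest, so such likeness is a description of these 9 libraries.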

How the data were processed

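RNA of 9 HCT116 libraries was prepared with a TruSeq RNA v2 kit, per the labels' protocols, which does not mark strand. The submitters' processing notes name fastp 0.20.1, FastQC 0.11.9, STAR without a version, GRCh38 and DESeq2 1.34.0; the counting program and its annotation release were not given in the sources used here. Unnormalised counts per gene and repeat subfamily make up the deposited count table. The log2 fold changes, the p-values and adjusted p-values, and the base mean (a mean signal of normalised counts) were deposited by the authors from DESeq2. The base mean was used only to read the tables.

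From the counts, edgeR 4.0.16 (R 4.3.3) fitted the labelled groups and the trios behind the authors' tables by the quasi-likelihood method, with TMM scaling and a low-count filter that kept 20402 features (19488 genes and 914 repeats). DESeq2 1.42.0 was the alternative tool and was used to rerun the tables. Adjustment was by Benjamini-Hochberg over all features, and an adjusted p below 0.05 was called. The fits were tested on simulated counts. Levels per length used exon unions from GENCODE v29, and promoters came from RefSeq GRCh38.p14.

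The members and lists were chosen with earlier results of these data known. All 10 members are described; from each list, up to 4 called genes per direction and table are named by lowest adjusted p, a few items that the rule names are not reported here, and the members without an adjusted p were left out of list counts. Depth was 30.25 to 60.22 M (1e6) counts, and member counts ran from 259 (MXD3) to 25723 (MYC) per library. No 2 libraries agreed within sampling noise, but 2 pairs came close to it by chi-square per degree of freedom. These were shCTRL DMSO replicate 3 with shSLC6A3 DMSO replicate 1 in the V trio (1.34, the lowest), and shSLC6A3 DMSO replicates 2 and 3 in the D trio (1.46). Whether either pair came from the same culture is not given by the labels.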

Additional observations from a re-analysis of the deposited data

How the results depend on the processing

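In the authors' table for shCTRL V and between the V and DAT trios, each member kept its direction under every alternative run, and the members called there stayed called; leaving out 1 library gave 9300 to 11490 and 10339 to 13888 features called, with 7 to 8 and 7 members. MAX joined the calls for shCTRL V without shSLC6A3 DMSO replicate 3 (0.31 unshrunken, adjusted p = 0.0479, DESeq2) and in the edgeR fit with trio and label terms, chosen after seeing the data (0.30, adjusted p = 0.00321), where MXI1 also joined between V and DAT (0.14, adjusted p = 0.0315). For shDAT D, leaving out 1 library gave 0 to 7890 features and 0 to 7 members; edgeR, edgeR with RLE factors and the fit with trio and label terms each called 0 features and 0 members, the unshrunken MGA change ran from -0.053 to 0.012 and that of MLXIP from -0.047 to 0.11 without 1 library, with -0.045 for MLXIP under trio and label terms. edgeR without the filter called 690 features there (231 higher and 459 lower, 33.5% higher, against 15.1% in the authors' deposited table). For labelled VXN, the 2 calls became 20 with DESeq2, 9 with trio and label terms, 0 without the filter, 0 with the replicate block and 0 to 0 without 1 library. Its changes without 1 library ran from -0.35 to 0.18 for MYC, -0.78 to 1.40 for MXD1, -0.25 to 0.72 for MXD4 and -0.24 to 0.42 for MXD3. For labelled shSLC6A3 they ran from -1.81 to 1.03 for MXD1, -1.07 to 0.30 for MXD4 and -0.51 to 0.12 for MXD3; with trio and label terms MXD1 was 0.052 and MXD3 0.038. With the replicate block MXD3 was 0.0093 there, and the block gave 0 calls for shSLC6A3. Correlations of same-numbered deviations from the labelled group means ran from -0.69 to 0.89, and 5 of 9 exceeded 0.1. They were positive where both libraries lay inside or both outside the V trio, and negative where only 1 lay inside. The split of the V trio thus set their sign, and they could not show whether the labels' replicate numbers pair the libraries. The cause of these shifts was not tested. MXD3 rested on 259 to 982 counts per library.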

Other observations

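Germline genes that MGA and its Polycomb complex are known to silence were mostly at or near 0. The 14 genes listed for this include SMC3, which is not limited to the germline. Of the 14, 6 had an adjusted p in the authors' deposited table of shCTRL V. Of these, 1 rose and 3 fell, SMC3 among the falls, where 21.4% of all features tested rose and 22.7% fell. SMC3, a cohesin subunit that all dividing cells use, fell by 0.80 (SE 0.10) in the authors' deposited table of shCTRL V and had 112, 113 and 104 CPM in the V trio, 178, 188 and 175 CPM in the DAT trio and 204, 203 and 161 CPM in the D trio. The meiotic gene MEI1 rose by 1.37 (SE 0.43) in the authors' deposited table of shCTRL V, with at most 0.817 CPM in any library. MEIOB fell by 2.74 (SE 0.88) in the authors' deposited table of shCTRL V, with 0.121, 0.0441 and 0 CPM in the V trio, 0.880, 1.03 and 1.05 CPM in the DAT trio and 0.185, 0.230 and 1.05 CPM in the D trio. The meiotic cohesin gene SMC1B fell by 1.70 (SE 1.69) in the authors' deposited table of shCTRL V and stayed at or below 0.211 CPM. MGA itself fell in the same comparison, and whether this bears on the listed genes was not tested. CACGTG was in 8 of 18 promoter windows of the list (44.4%), against 7.26% of all promoters. The windows of TDRD1 overlap and hold the same hexamers, as do those of STAG3, so these were counted more than once.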
